A study of Mus musculus with 8 samples.

Results

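Total RNA of mouse embryonic stem cells that carry a Mettl6 knockout (KO, the clone called G6) was compared with total RNA of wild-type (WT) cells. All genes that averaged 1 CPM or more over the 4 total RNA libraries were compared, where CPM gives the reads of a gene as a share of the reads of its library. They were 13222 of the 23818 gene symbols in the table (55.5%). Of the 10596 symbols below that level, 7297 were at 0 in all 4 libraries. Both genotypes were of the J1 strain, grew in 2i medium supplemented with LIF, and stood in cycloheximide, a blocker of ribosome elongation, for 10 min before they were lysed. RNA was isolated with Trizol. Each genotype had 2 libraries, described as biological replicates, and the other libraries of the series, which hold ribosome footprints, were not used. The knockout is 1 clone, so the genotype and the history of the clone cannot be told apart. The titles of the WT libraries carry a suffix that the titles of the KO libraries lack, so a difference in when or how they were made cannot be told apart from the genotype either.

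METTL6 is a methyltransferase that places 3-methylcytidine (m3C) in the anticodon loop of serine tRNAs, a position that shapes how the loop is held and how the tRNA is read. The total RNA comparison asks which transcripts stand at other levels in cells that lack the enzyme. Mouse embryonic stem cells in 2i medium with LIF are held in a naive pluripotent state by inhibitors of the MEK and GSK3 kinases together with a cytokine that activates STAT3. They divide fast, with little time outside S phase, and make a laminin-rich basement membrane of their own.

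The KO libraries were the shallower ones, with an estimated 1301531 and 1524097 reads, against 2031518 and 1957674 reads in the WT libraries, so that 1 read was worth 0.768 and 0.656 CPM in KO and 0.492 and 0.511 CPM in WT. Replicates correlated across genes at r = 0.935 in KO and 0.969 in WT, and the KO with WT pairs at 0.916 to 0.925. Of 7043 genes that averaged 20 CPM or more, 168 differed more than 2-fold between the KO libraries and 33 between the WT libraries. The cells had the markers of their label. Summed over 10 embryonic stem cell markers, the level was 5446 and 5833 CPM in KO, against 6460 and 6121 CPM in WT. Summed over 10 feeder and fibroblast markers it was 13.1 and 2.0 CPM in KO, against 3.0 and 4.1 CPM in WT, with Col1a2, Col3a1, Dcn, Lum, Postn and Fap at 0 in all 4 libraries. Summed over 7 primitive endoderm markers it was 13.8 and 7.9 CPM in KO, against 7.4 and 6.6 CPM in WT, with Foxa2 at 0 in all 4.

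Mettl6 itself stood at 2.30 and 0 CPM in the KO libraries, against 25.6 and 27.1 CPM in the WT libraries. Both KO libraries thus lay far below both WT libraries, as the labels state, and 1 KO library held a few reads. The log2 change, a difference on the log2(CPM + 1) scale, was −3.91 (SE 0.599, adjusted p = 0.000367 by limma-trend, p-values adjusted over all tested genes after Benjamini and Hochberg). The gene lies on chromosome 14 from 31463715 to 31495059 (RefSeq, GRCm38.p6). Eaf1, an elongation factor partner on the other strand, starts 39 bp from position 31495040, the Mettl6 start used for the sequence window below. That Mettl6 start lies inside the span given for the gene. Eaf1 had 61.5 and 68.9 CPM in KO, against 59.1 and 61.8 CPM in WT, with no call (log2 change 0.11, limma-trend adjusted p = 0.784). Of the 10 tested genes within 300 kb of Mettl6, Mettl6 alone was called. The window from 250 bases before to 50 bases after the Mettl6 start is shown because the starts of both genes lie in or beside it. It covers chr14:31494991-31495290 (GRCm38.p6, minus strand, sequence from RefSeq), with each CpG (the letters CG, which read the same on both strands) in capitals.
Mettl6: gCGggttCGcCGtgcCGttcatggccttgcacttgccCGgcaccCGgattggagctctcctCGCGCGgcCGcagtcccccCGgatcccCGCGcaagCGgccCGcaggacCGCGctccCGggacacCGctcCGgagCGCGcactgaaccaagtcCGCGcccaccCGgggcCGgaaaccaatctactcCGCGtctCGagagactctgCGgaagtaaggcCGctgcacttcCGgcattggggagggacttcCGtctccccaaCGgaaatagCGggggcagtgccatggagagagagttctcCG
The window holds 36 CpGs, and 88.2% of the 9942 tested genes with a RefSeq window hold fewer.

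Across all genes, limma-trend called 1799 of 13222 (13.6%) at an adjusted p below 0.05. In KO 869 genes were higher (6.57%) and 930 were lower (7.03%). In bulk RNA, fewer cells of a type and less RNA per cell cannot be told apart. In all 1799 the genotypes did not overlap. Over all tested genes, both KO libraries lay above both WT libraries in 3489 (26.4%) and below them in 3935 (29.8%). Most called changes were moderate. The log2 change was under 1 in size for 1085 of them, at least 1 for 419 higher and 295 lower genes, and at least 2 for 86 higher and 39 lower genes. The genes called higher took 21.4% and 21.5% of all CPM in the KO libraries, against 12% and 11.5% in the WT libraries. The genes called lower took 14.3% and 14.8% in KO, against 23.5% and 22.5% in WT. Without the genes of chromosomes 6, 8 and 11, whose shift is described below, of 10791 tested the calls were 783 higher and 399 lower.

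How often a gene was called followed its level. Of 2790 genes at a mean of 1 to 5 CPM 1.33% were called, with a median standard error of 0.776 (log2). Of 896 genes at 200 CPM or more 43.0% were called, with a median standard error of 0.130. At 50 to 200 CPM 365 genes were higher and 462 lower of 3164, and at 20 to 50 CPM 186 were higher and 177 lower of 2983. A gene without a call at a low level is therefore a gene whose difference was not detectable at this depth. With 2 libraries per genotype the fit has 2 residual degrees of freedom, and limma-trend borrows the spread of other genes of like level. With any 1 of the 4 libraries left out, 0 genes were called (1863 to 3655 at an unadjusted p below 0.05), so every call below needs all 4 libraries. With no filter on low values 937 genes were called, and of the lists below the lysosome then had 6 genes higher, solute carriers 22, folding and translocation 4, N-glycosylation 3, DNA methylation 3 and Zfp genes 12. Under that setting the lower calls were 5 for COPI and COPII, 6 for purines and pyrimidines, 5 for fatty acids, 3 for cholesterol, 4 for the spliceosome, 4 for mRNA decay, 2 for SR proteins and hnRNPs and 0 for Polycomb. Of the genes described below, Bet1, Cdh2, Cdh4, Cntnap2, Dus2, Dusp6, Ezh2, Fzd3, Fzd5, Gldc, Hnrnpk, Notch2, Osgep, P3h1, Pdk1, Perp, Rpn2, Sf3b6, Sparc and Suz12 were then not called. With a pseudocount of 0.1 CPM Cdh2, Dusp6, Gldc, Osgep, P3h1, Pdk1, Sparc and Sycp2 were not called, with limma-voom Dusp6 was not, and with a pseudocount of 0.5 CPM Pdk1 and Sparc were not. With the median of each chromosome removed, Acly, Atp6v1b2, Dhodh, Ezh2, Fzd5, Gapdh, Gldc, P3h1, Rpa3, Rpn1, Suz12, Tpi1 and Zfp42 were not called.

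**Figure D1:**
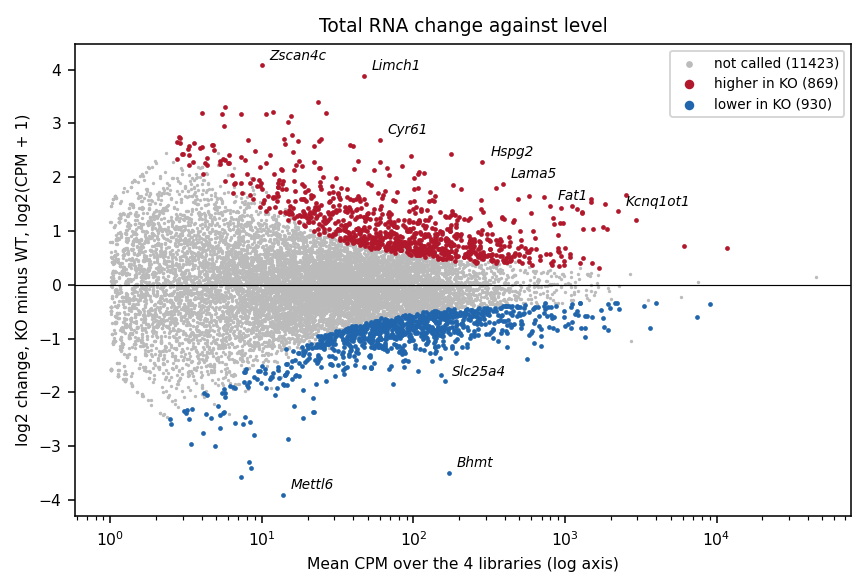
Each point is 1 of the 13222 tested genes, with its mean CPM over the 4 libraries on a log x axis and its log2 change (KO minus WT, log2(CPM + 1) scale) on the y axis; red points were called higher in KO (869), blue points lower in KO (930) and grey points were not called. The called genes reach smaller changes as the level rises. Mettl6 (−3.91) is the lowest called gene, and Bhmt (−3.50) lies far below other genes of its level.

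How often genes were called differed by chromosome. Genes of chromosomes 6, 8 and 11, grouped because of their medians, had median log2 changes of −0.41, −0.39 and −0.44. There 42 genes were higher (1.73%) and 498 lower (20.5%) of 2431, while on the other chromosomes 825 were higher (7.68%) and 431 lower (4.01%) of 10739. Among genes at 50 CPM or more, 84.2% of 822 on these chromosomes lay below 0, against 48.3% of 3228 elsewhere. The shift ran along nearly the whole of each chromosome. In windows of 20 Mb, read over genes at 20 CPM or more, chromosome 11 had medians from −0.43 to −0.56 in every window. Chromosome 6 had −0.08 in its first window and −0.28 to −0.55 in the rest. Chromosome 8 had −0.28 and −0.14 in its first 40 Mb and −0.36 to −0.69 in the rest. On chromosome 13, whose overall median was −0.10, the window from 20 to 40 Mb had −0.48 and the other windows −0.12 to 0.11. That window holds the main histone cluster, of whose 52 tested genes 31 were lower and 0 higher.

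**Figure D2:**
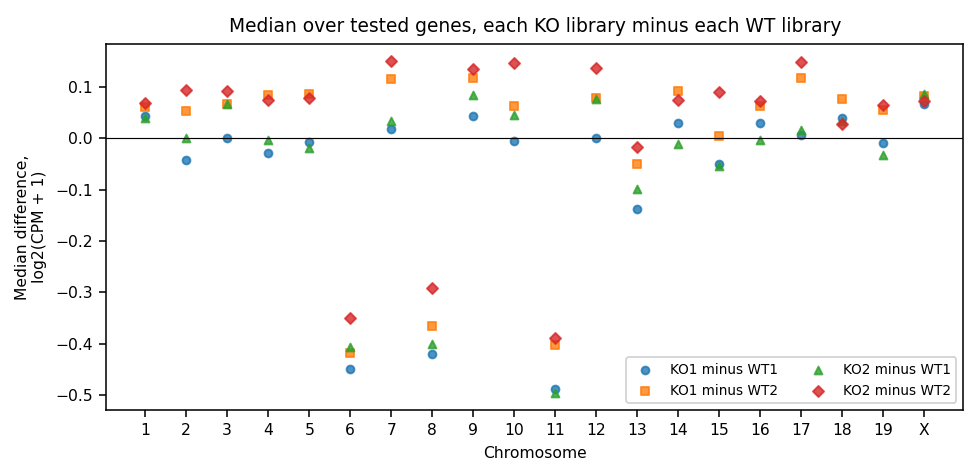
For each chromosome, the points give the median over its tested genes of the difference in log2(CPM + 1) between each KO library and each WT library, 4 pairs in all. Chromosomes 6, 8 and 11 lie between −0.50 and −0.29 in every pair, below every other autosome and the X chromosome in each pair.

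A few genes of these chromosomes went the other way. Fat1, an atypical cadherin on chromosome 8, had 1209 and 1118 CPM in KO, against 433 and 412 CPM in WT (2.75-fold, log2 change 1.46, limma-trend adjusted p = 3.38e-07). Egfr, the receptor of epidermal growth factor on chromosome 11, had 18.4 and 40.7 CPM in KO, against 9.85 and 7.15 CPM in WT (log2 change 1.60). Gas6, a ligand of TAM receptors on chromosome 8, had 26.9 and 32.2 CPM in KO, against 11.8 and 5.62 CPM in WT (log2 change 1.72). These 3 were named after their values were seen, and in each both KO libraries lay above both WT libraries.

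The 15 largest increases at an average of 50 CPM or more were led by genes of the cell surface and the matrix. Cyr61, a matricellular protein that binds integrins, had 88.4 and 121 CPM in KO, against 16.7 and 13.8 CPM in WT (6.87-fold, log2 change 2.69, SE 0.251, limma-trend adjusted p = 2.83e-06). Col18a1, a basement membrane collagen, had 280 and 317 CPM in KO, against 57.6 and 51.1 CPM in WT (5.49-fold, log2 change 2.43, limma-trend adjusted p = 1.12e-07). Vcan, the large proteoglycan versican, had 170 and 154 CPM in KO, against 29.0 and 30.6 CPM in WT (5.42-fold). In each of them the libraries of a genotype lay close together and the genotypes far apart. Hspg2 (perlecan, 4.93-fold) and Lama5 (a laminin alpha chain, 3.69-fold) are basement membrane proteins too. F2r, the thrombin receptor PAR1, rose 4.74-fold, Pros1, the anticoagulant protein S, 4.2-fold, and Htra1, a secreted serine protease, 4.41-fold. Gpr126, an adhesion receptor of the G protein-coupled family, rose 4.54-fold, and Celsr1, an atypical cadherin of planar cell polarity, 4.22-fold. Ap1s3, a subunit of a clathrin adaptor, rose 5.06-fold, Laptm5, a lysosomal membrane protein, 4.68-fold, and Fam198b 3.88-fold. Tmppe rose 4.35-fold, but it overlaps Glb1, itself higher, over 10107 bp, so reads of both genes may be mixed.

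The 15 largest decreases at that level held an enzyme of methionine metabolism, 2 histones and a set of genes on chromosomes 6, 8 and 11. Bhmt, described below with its neighbours, came first. Slc25a4, the ADP/ATP carrier of the inner mitochondrial membrane (chromosome 8), had 60.7 and 82.7 CPM in KO, against 264 and 234 CPM in WT (3.48-fold lower, log2 change −1.80, SE 0.174, limma-trend adjusted p = 4.32e-06). Snx2, a sorting nexin of the retromer pathway (chromosome 18), had 66.8 and 77.4 CPM in KO, against 232 and 233 CPM in WT (3.22-fold lower, log2 change −1.68, limma-trend adjusted p = 3.40e-06). Trnt1, which adds the CCA end to tRNAs (chromosome 6), had 33.5 and 39.4 CPM in KO, against 101 and 109 CPM in WT (2.89-fold lower, limma-trend adjusted p = 0.000106). Trnt1 overlaps Crbn, which was not called, over 4231 bp, so reads of both genes may be mixed. In each of the 3 the libraries of a genotype lay close together, far from those of the other. Fancd2, of the Fanconi anaemia repair pathway, fell 2.69-fold, Prmt7, an arginine methyltransferase, 2.93-fold, and Hibadh, an enzyme of valine breakdown, 2.93-fold. Glod4 fell 3-fold, Cdk5rap3 3.02-fold, Htatsf1 2.96-fold and the tubulins Tuba1a and Tuba3a 2.69-fold and 2.70-fold. Of the 15, 9 lie on chromosomes 6, 8 or 11 and 6 do not. Tuba1a and Tuba3a are near copies, so the split of reads between them is uncertain.

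**Figure D3:**
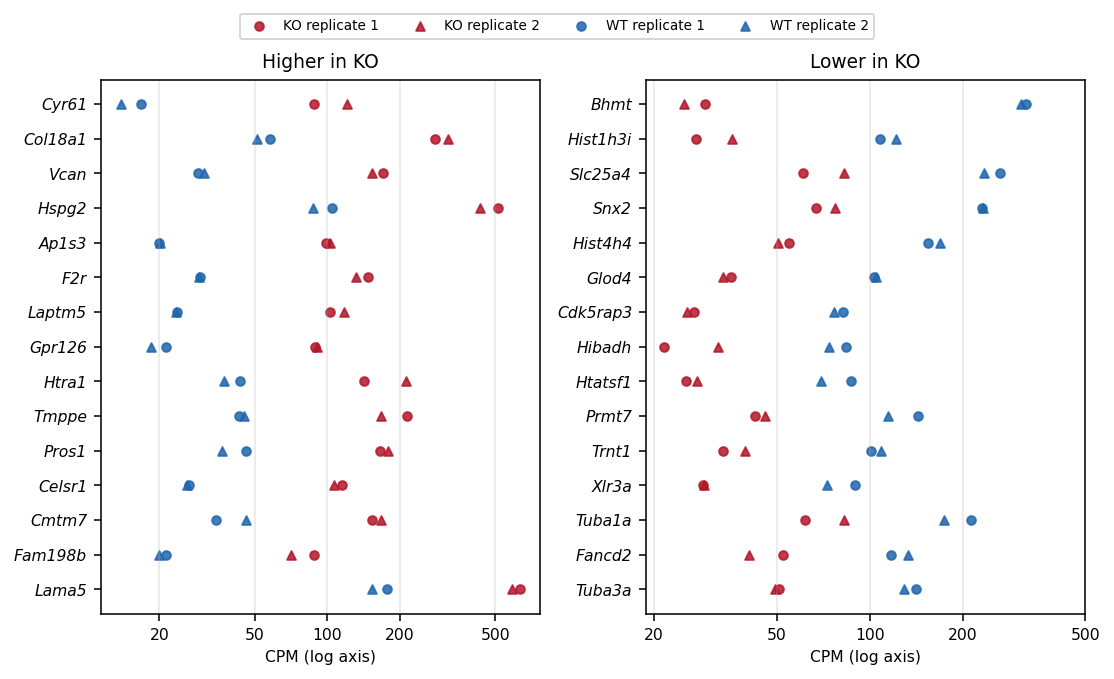
The CPM in each library (log x axis) is shown for the 15 largest increases (left) and the 15 largest decreases (right) among called genes that averaged 50 CPM or more, with KO libraries in red and WT libraries in blue. No KO point of any of the 30 genes overlaps the WT points, and Bhmt shows the widest gap.

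Between 5 and 50 CPM the largest increase with counts in every library was that of Limch1, which binds non-muscle myosin and actin, at 83.7 and 95.1 CPM in KO, against 6.40 and 4.09 CPM in WT (17.1-fold, log2 change 3.88, limma-trend adjusted p = 7.04e-07). Fgfr2, a receptor of fibroblast growth factors, had 21.5 and 23.0 CPM in KO, against 1.48 and 1.53 CPM in WT (14.8-fold). Pkhd1, the gene of fibrocystin, had 25.4 and 14.4 CPM in KO, against 0.984 and 1.53 CPM in WT. Fgfr2 and Pkhd1 were at the level of a few reads in WT. Cntnap2, a neurexin-like adhesion protein on chromosome 6, had 3.07 and 0.656 CPM in KO, against 19.7 and 10.2 CPM in WT (log2 change −2.55). Bet1, a SNARE of the route from the endoplasmic reticulum to the Golgi, also on chromosome 6, had 0.768 and 6.56 CPM in KO, against 20.7 and 31.7 CPM in WT (log2 change −2.86). Few genes were listed at 0 in 1 genotype alone. Of 38 genes listed at 0 in both WT libraries and at 1 CPM or more in both KO libraries, 6 were called, among them Sycp2 of the synaptonemal complex (6.92 and 4.59 CPM in KO). Of 51 genes listed at 0 in both KO libraries and at 1 CPM or more in both WT libraries, 3 were called.

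The gene list with the largest share of higher calls was that of laminins and the basement membrane, the sheet of matrix on which epithelial cells sit. Of 18 tested members 11 rose and 0 fell, with a median log2 change of 1.18, against −0.04 over all genes. Lamc1, the laminin gamma chain, had 1660 and 1805 CPM in KO, against 688 and 615 CPM in WT (2.66-fold, log2 change 1.41, limma-trend adjusted p = 3.93e-07). Nid1, the nidogen that links laminin to collagen IV, had 1226 and 1349 CPM in KO, against 615 and 542 CPM in WT (2.23-fold, log2 change 1.15). Nid2 rose 2.38-fold, and Hspg2 and Lama5 are given above. In the order of their p, the other members that rose, named after their values were seen, were Agrn (agrin, 2.30-fold), Npnt (nephronectin, 11.6-fold), Lama1 (2.10-fold), Col4a1 (2.64-fold), Lamb1 (1.68-fold) and Sparc (1.32-fold). Over the tested members the summed level was 6047 and 6258 CPM in KO, against 2849 and 2413 CPM in WT. Of the 15 members off chromosomes 6, 8 and 11, 9 rose. The lists of 2 other cell types were also higher in sum. Of the 14 genes of the feeder and fibroblast list 4 were tested. They summed to 87.6 and 80.7 CPM in KO, against 46.3 and 48.6 CPM in WT. Most of that was Vim, the 1 called gene, at 65.3 and 71.5 CPM in KO, against 34.5 and 40.9 CPM in WT. Col1a2, Col3a1, Dcn, Lum, Postn and Fap were at 0. The primitive endoderm list, 9 of whose 18 genes were tested, shares Sparc with the basement membrane list. Its tested genes summed to 903 and 1027 CPM in KO, against 645 and 554 CPM in WT, with Afp, Apoa1, Foxa2 and Ttr at 0. Most of that was Sparc, at 538 and 646 CPM in KO, against 477 and 417 CPM in WT, and Lrp2. Lrp2 had 323 and 338 CPM in KO, against 152 and 128 CPM in WT. The part of these cell types in the result was not tested.

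The enzymes and receptors that go with such a matrix rose in part. Among 17 tested genes of collagen folding and crosslinking 5 rose and 0 fell (median 0.56). They were Crtap (3.29-fold) and P3h1 (1.61-fold), partners in prolyl 3-hydroxylation, the lysyl hydroxylases Plod2 (2.42-fold) and Plod3 (1.93-fold), and Serpinh1, the collagen chaperone (1.95-fold). Crtap had 217 and 177 CPM in KO, against 71.4 and 48.5 CPM in WT. Among 22 tested integrin genes and partners 4 rose and 0 fell (median 0.08), a share called of 18.2%, against 13.6% over all genes. They were Itgav (2.01-fold) and Itgb5 (2.26-fold), which pair as a receptor of vitronectin, Itga6 (1.59-fold), a chain of laminin receptors, and Tln1, talin, which ties integrins to actin (1.68-fold). Most integrin genes thus passed no test.

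Of 23 tested matricellular genes and targets of the YAP coactivator, 10 rose and 0 fell (median 0.75, and 10 of 21 off chromosomes 6, 8 and 11). Fn1, fibronectin, had 2371 and 2108 CPM in KO, against 808 and 680 CPM in WT (3.01-fold, log2 change 1.59, limma-trend adjusted p = 1.54e-07). Ctgf, a matricellular protein and textbook YAP target, had 63.8 and 74.8 CPM in KO, against 13.3 and 8.68 CPM in WT (6.31-fold). Ptpn14, a phosphatase that holds YAP in the cytoplasm, had 47.6 and 51.2 CPM in KO, against 14.8 and 16.9 CPM in WT (3.12-fold). In all 3 the genotypes were well apart. Vcan and Cyr61, given above, complete the 5 with the smallest p.

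Of 28 tested genes of the actin cytoskeleton 6 rose and 3 fell (median −0.07). Off chromosomes 6, 8 and 11, 6 of 22 rose and 1 fell (median 0.20). Flna, a filamin that crosslinks actin, had 1206 and 1560 CPM in KO, against 530 and 496 CPM in WT (2.70-fold). Actn1, an alpha-actinin, rose 1.72-fold. Actg1, gamma actin on chromosome 11, fell 1.4-fold, and Actb, beta actin, had 2222 and 2268 CPM in KO, against 2325 and 2210 CPM in WT, with no call (limma-trend adjusted p = 0.948, both named after their values were seen). In the list of cadherins and desmosomes 3 of 19 rose and 0 fell (median 0.01), a share called of 15.8%, against 13.6% over all genes. They were Celsr1, Cdh4 (6.58-fold) and Cdh2, N-cadherin, which had 13.1 and 10.5 CPM in KO, against 3.94 and 2.04 CPM in WT. Cdh1, E-cadherin, had 741 and 765 CPM in KO, against 760 and 779 CPM in WT (log2 change −0.03, SE 0.108, limma-trend adjusted p = 0.89), and was named after its value was seen.

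Some genes of the Notch, FGF and Wnt pathways were higher in KO. The shares called were 21.1%, 16.7% and 13.6%, against 13.6% over all genes, of which 6.57% were higher. In the Notch pathway 4 of 19 rose and 0 fell (median 0.29), and they were 3 of the 4 receptors and 1 ligand. Notch1 had 151 and 140 CPM in KO, against 60.6 and 48.0 CPM in WT (2.67-fold, limma-trend adjusted p = 8.29e-05), Notch3 rose 2.65-fold, Notch2 1.64-fold and the ligand Jag1 2.67-fold. The target genes Hes1, Hey1 and Nrarp, named after their values were seen, were not called, with log2 changes of −0.35, 0.29 and −1.29 at levels of 33 CPM or less. Among FGF receptors and feedback genes of the ERK pathway 3 of 18 rose and 0 fell (median 0.01): Fgfr2, Etv1, a transcription factor downstream of ERK (26.1 and 34.1 CPM in KO, against 4.43 and 6.13 CPM in WT), and Dusp6, an ERK phosphatase (4.61 and 7.87 CPM in KO, against 0 and 0.511 CPM in WT). In the Wnt pathway 3 of 22 rose and 0 fell (median 0.26): Apc, of the complex that degrades beta-catenin, at 532 and 532 CPM in KO, against 324 and 320 CPM in WT, and the receptors Fzd5 (1.43-fold) and Fzd3 (2.57-fold).

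In the Nodal and BMP pathway 4 of 28 rose and 1 fell (median 0.24), a share called of 17.9%, against 13.6% over all genes. Nodal, the ligand, had 141 and 153 CPM in KO, against 53.6 and 62.3 CPM in WT (2.54-fold, log2 change 1.33, limma-trend adjusted p = 9.54e-05). Fst, follistatin, which binds activins, had 30.7 and 25.6 CPM in KO, against 3.94 and 2.55 CPM in WT (8.68-fold), and Smad7, an inhibitory SMAD, rose 2.16-fold. Lefty2, a Nodal antagonist that is itself a target of the pathway, had 69.1 and 86.5 CPM in KO, against 130 and 162 CPM in WT (1.88-fold lower, log2 change −0.90, limma-trend adjusted p = 0.00316). The ligand and its antagonist thus stood on opposite sides, with no overlap of the genotypes in either.

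Genes of the lysosome, the organelle that breaks down cargo at low pH, were higher in part. Of 33 tested lysosome genes 11 rose and 2 fell (median 0.38). Psap, the precursor of the saposins, which help to break down sphingolipids, had 720 and 936 CPM in KO, against 446 and 377 CPM in WT (2.01-fold, limma-trend adjusted p = 0.000122). Tpp1, a peptidase, rose 2.33-fold, Ctsl, cathepsin L, 1.92-fold, and Hexa, a subunit of beta-hexosaminidase, 2.00-fold. The members that fell were both subunits of the proton pump encoded on chromosome 8, Atp6v1b2 (1.79-fold) and Atp6v0d1 (1.98-fold), with Atp6v0d1 named after its value was seen. Off chromosomes 6, 8 and 11, 11 of 26 rose and 0 fell.

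In the endoplasmic reticulum 10 of 34 genes of folding and translocation rose and 1 fell (median 0.28). Pdia3, a disulfide isomerase of glycoprotein folding, rose 1.85-fold, Atf6, a sensor of unfolded protein, 2.15-fold, Ssr2, a translocon subunit, 1.74-fold, and Derl1, of the export of misfolded protein, 1.76-fold. The member that fell was Xbp1, the transcription factor of the same response, on chromosome 11 (1.63-fold, named after its value was seen). Of 33 genes of N-glycosylation 6 rose and 1 fell (median 0.26). Stt3b, a catalytic subunit of the oligosaccharyl transferase, had 436 and 378 CPM in KO, against 157 and 150 CPM in WT (2.66-fold, log2 change 1.40, limma-trend adjusted p = 4.44e-06). Its partners went both ways, Rpn2 up 1.45-fold and Rpn1, on chromosome 6, down 1.5-fold. The coats that carry cargo between the endoplasmic reticulum and the Golgi went down: of 27 COPI and COPII genes and their SNAREs 0 rose and 9 fell (median −0.32), but 7 of the 9 lie on chromosomes 6, 8 or 11, and of the 15 members elsewhere 2 fell, both of them COPI subunits, Copb2 (1.59-fold) and Arcn1 (1.51-fold, named after its value was seen).

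Solute carriers are the transporters of small molecules. Of 232 tested genes with the Slc prefix, 34 rose and 6 fell (median 0.24), and off chromosomes 6, 8 and 11, 30 of 183 rose and 1 fell. Of the 37 mitochondrial carriers of the Slc25 family 2 rose and 5 fell (median −0.16), while of 193 solute carriers of other families 32 rose and 1 fell (median 0.30). Among these 193 genes, Slc9a3r1 and Slc9a3r2 encode scaffold proteins and were not called. The remaining 2 genes with the prefix were not called either. Of the 5 Slc25 genes that fell, 4 lie on chromosomes 6, 8 or 11, as does the other solute carrier that fell. This division was made after the values were seen, and the difference between the families was not tested. Slc38a2, of neutral amino acids, had 668 and 615 CPM in KO, against 289 and 268 CPM in WT (2.30-fold, log2 change 1.20, limma-trend adjusted p = 6.07e-06). Slc2a1, the glucose transporter GLUT1, had 305 and 261 CPM in KO, against 119 and 117 CPM in WT (2.40-fold). Slc5a1, a sodium and glucose cotransporter, rose 5.18-fold and Slc6a8, of creatine, 2.73-fold, while Slc25a13, the aspartate and glutamate carrier of mitochondria on chromosome 6, fell 2.27-fold. The cationic amino acid transporters Slc7a3, Slc7a1 and Slc7a2 rose 1.95-fold, 1.77-fold and 3.87-fold, and the multivitamin transporter Slc5a6 rose 2.76-fold (these 4 and Slc6a8 were named after their values were seen). Slc25a5, another ADP/ATP carrier, fell 1.31-fold beside Slc25a4, and reads of these near copies can be shared (named after its value was seen). In the list of glycolysis, Slc2a1 was the only gene to rise of 26 tested, and 3 fell: Gapdh, Tpi1 and Pdk1. The share called was 15.4%, against 13.6% over all genes. Off chromosomes 6, 8 and 11, 1 of 18 fell.

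**Figure D4:**
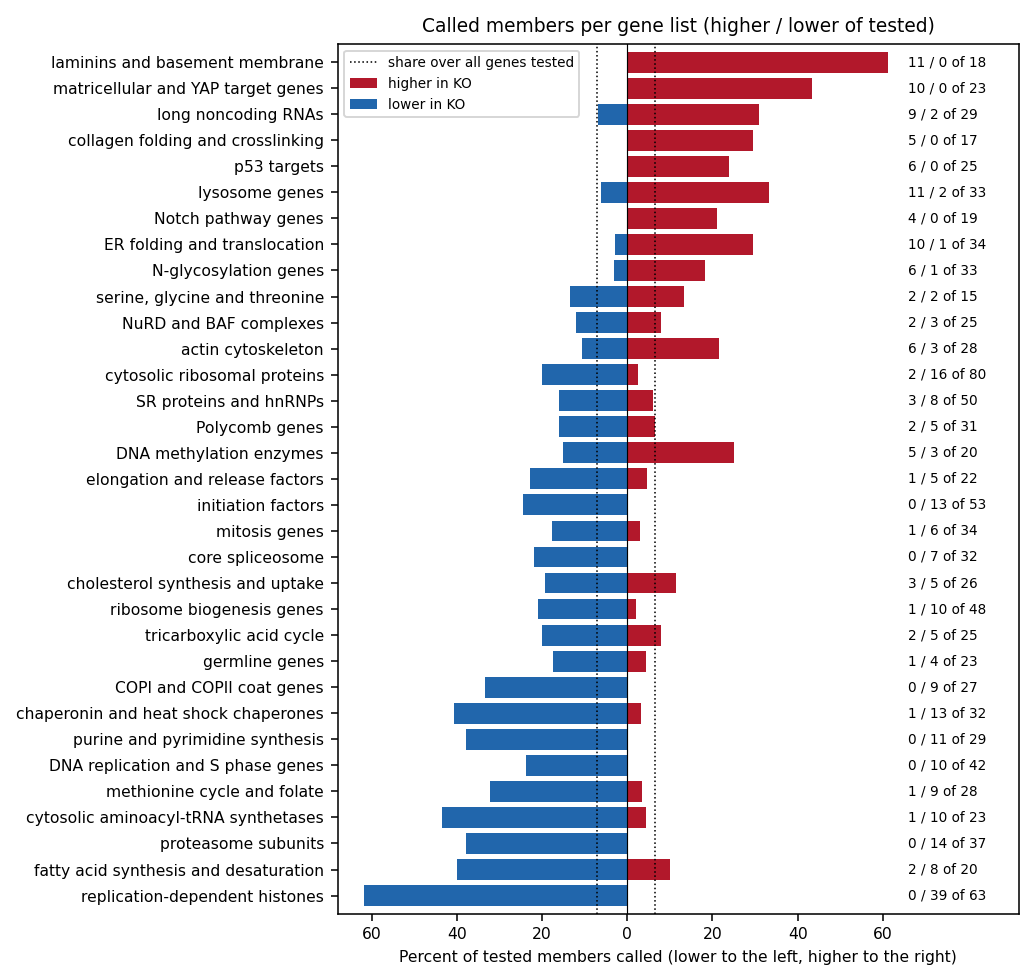
For each gene list with at least 15 tested genes and at least 20% of them called, red bars to the right give the percentage of tested members called higher in KO and blue bars to the left the percentage called lower; dotted lines mark these shares over all tested genes (6.57% and 7.03%). Lists run from the highest median log2 change at the top (basement membrane, 1.18) to the lowest at the bottom (histones, −0.72).

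Subunits of the proteasome, which degrades ubiquitinated protein, were lower without exception in sign. Of 37 tested 0 rose and 14 fell, and all 37 had log2 changes below 0, from −1.16 to −0.08 (median −0.50). Psma4, a subunit of the core, had 108 and 138 CPM in KO, against 273 and 237 CPM in WT (2.07-fold lower, log2 change −1.05, limma-trend adjusted p = 0.000332). Psmd2, a subunit of the cap that docks ubiquitin receptors, had 236 and 251 CPM in KO, against 446 and 415 CPM in WT (1.77-fold lower). The cap subunits Psmd12, Psmd11 and Psmc5, on chromosome 11, fell 2.22-fold, 2.15-fold and 2.07-fold. The core (5 lower of 16, median −0.47) and the cap (9 lower of 21, median −0.64) both took part. Off chromosomes 6, 8 and 11, 8 of 28 fell, with a median of −0.47. Summed over the tested subunits, the level was 3437 and 3645 CPM in KO, against 5484 and 5247 CPM in WT.

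The chaperonin CCT, a ring of 8 related subunits that folds actin and tubulin, showed a like picture. Of the 8 subunits 7 fell, and all 8 lay below 0, from −1.38 to −0.31. Cct7, on chromosome 6, had 323 and 293 CPM in KO, against 866 and 748 CPM in WT (2.62-fold lower, log2 change −1.38, SE 0.123, limma-trend adjusted p = 1.58e-06). Cct5, on chromosome 15, had 257 and 324 CPM in KO, against 558 and 521 CPM in WT (1.86-fold lower). Cct3, the subunit without a call, had 324 and 392 CPM in KO, against 510 and 382 CPM in WT, with 1 KO library between the WT libraries (named after its value was seen). In the whole list of chaperonin and heat shock chaperones 1 of 32 rose and 13 fell (median −0.32). Hspa4, a nucleotide exchange factor of HSP70, fell 1.74-fold, and Dnaja2, an HSP70 cochaperone, 1.91-fold. Off chromosomes 6, 8 and 11, 7 of 26 fell.

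Of the machinery of translation, the enzymes that charge tRNAs in the cytosol had 1 of 23 higher and 10 lower (median −0.45, and 7 of 18 lower off chromosomes 6, 8 and 11), whereas none of the 17 that charge mitochondrial tRNAs was called (median 0.04, with log2 changes from −1.05 to 1.30). Kars, the lysyl-tRNA synthetase on chromosome 8, fell 2.25-fold, and Nars and Aimp1, a scaffold of the synthetase complex, on chromosomes 18 and 3, fell 1.55-fold and 1.86-fold. Of the 57 other tRNA modification enzymes tested, 2 rose and 4 fell (median −0.17), a share called of 10.5%, against 13.6% over all genes. Nsun2, a cytosine methyltransferase of tRNA, fell 1.51-fold, and Dus2, a dihydrouridine synthase on chromosome 8, fell 3.24-fold. Osgep, which makes the t6A mark beside the anticodon, had 3.07 and 12.5 CPM in KO, against 26.6 and 21.5 CPM in WT (3.09-fold lower, log2 change −1.75, SE 0.494, limma-trend adjusted p = 0.0253).

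The largest change among abundant genes lay in the methionine cycle, in which homocysteine is methylated back to methionine. In the list of methionine and folate metabolism 1 of 28 rose and 9 fell (median −0.41, and 5 of 21 lower off chromosomes 6, 8 and 11, median 0.00). Bhmt, which takes the methyl group from betaine, had 29.2 and 24.9 CPM in KO, against 321 and 310 CPM in WT (11.7-fold lower, log2 change −3.50, SE 0.176, limma-trend adjusted p = 5.45e-09). Its paralog Bhmt2, which takes it from S-methylmethionine, had 3.07 and 11.8 CPM in KO, against 41.8 and 31.2 CPM in WT (log2 change −2.36, limma-trend adjusted p = 0.00246). Dmgdh, which oxidises the dimethylglycine that Bhmt leaves, had 36.1 and 51.8 CPM in KO, against 96.0 and 102 CPM in WT (log2 change −1.17, limma-trend adjusted p = 0.00135). These 3 genes are neighbours on chromosome 13, and in each the KO libraries lay below the WT libraries. Within 300 kb of Bhmt 3 of 6 tested genes were lower, and the other 3, Homer1, Jmy and Arsb, were not called (Arsb at 6.73 and 6.84 CPM in KO, against 20.8 and 12.6 CPM in WT, limma-trend adjusted p = 0.0944). Bhmt, Bhmt2 and Dmgdh share a pathway as well as a place. Reads of the paralogs Bhmt and Bhmt2 can be shared in part.

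Bhmt2 and Dmgdh start 134 bp apart on opposite strands, so that their promoter windows overlap over 233 bases, while the Bhmt start lies apart from them. The windows of Bhmt, chr13:93637709-93638008 (minus strand), and of Dmgdh, chr13:93674186-93674485 (plus strand), are shown because the 3 genes fell together. They come from RefSeq (GRCm38.p6), and each CpG is in capitals.
Bhmt: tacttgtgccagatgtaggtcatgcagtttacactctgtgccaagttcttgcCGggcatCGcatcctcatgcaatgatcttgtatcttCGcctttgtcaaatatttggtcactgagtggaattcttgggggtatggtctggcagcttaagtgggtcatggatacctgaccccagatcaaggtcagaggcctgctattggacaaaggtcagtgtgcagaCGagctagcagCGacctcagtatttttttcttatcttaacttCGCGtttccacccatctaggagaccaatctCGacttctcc
Dmgdh: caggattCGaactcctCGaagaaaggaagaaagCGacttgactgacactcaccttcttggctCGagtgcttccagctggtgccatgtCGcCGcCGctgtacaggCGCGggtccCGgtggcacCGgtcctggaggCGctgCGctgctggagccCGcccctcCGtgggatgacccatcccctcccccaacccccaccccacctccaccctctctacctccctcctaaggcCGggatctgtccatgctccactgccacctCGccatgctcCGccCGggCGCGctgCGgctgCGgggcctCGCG
The Bhmt window holds 8 CpGs, more than 14.1% of the tested windows, and the Dmgdh window holds 25, more than 63.0% of them, with a median of 21 over all. The genes that fell together thus have promoters of unlike CpG content.

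**Figure D5:**
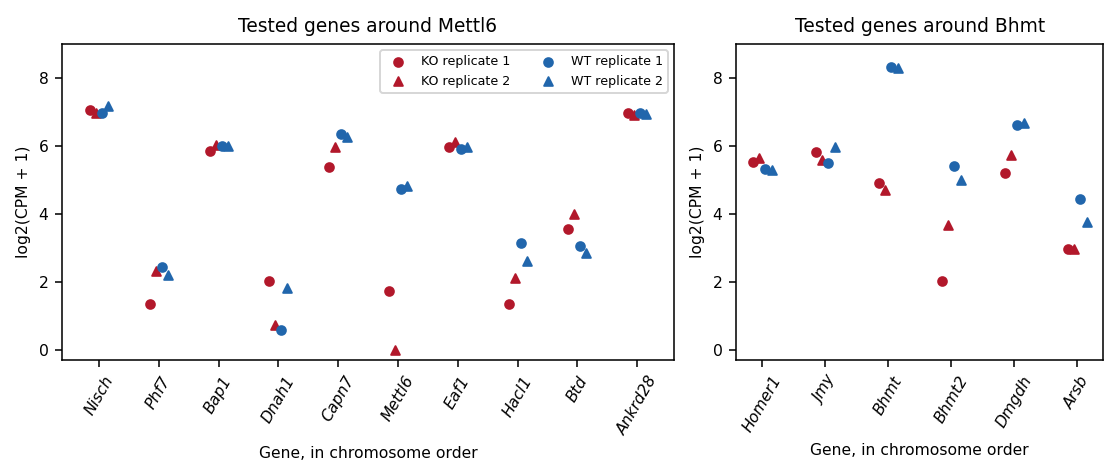
The level in each library, as log2(CPM + 1), is shown for the tested genes within 300 kb of Mettl6 (left) and of Bhmt (right), in the order of the chromosome, with KO libraries in red and WT libraries in blue. Around Mettl6 only Mettl6 itself was called, and around Bhmt the genes Bhmt, Bhmt2 and Dmgdh were called lower.

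Other steps of one-carbon metabolism followed in part. Ahcy, which splits S-adenosylhomocysteine (chromosome 2), had 235 and 213 CPM in KO, against 369 and 375 CPM in WT (1.66-fold lower, limma-trend adjusted p = 0.0011). Mthfd2 (chromosome 6) and Shmt1 (chromosome 11), which handle folate-bound carbon in mitochondria and cytosol, fell 2.09-fold and 2.24-fold. Gldc, of the glycine cleavage system, was the member that rose (1.45-fold, named after its value was seen). In the synthesis of purines and pyrimidines 0 of 29 rose and 11 fell (median −0.37, and 6 of 21 lower off chromosomes 6, 8 and 11). Atic, which makes the last steps to IMP, had 65.3 and 65.0 CPM in KO, against 122 and 125 CPM in WT (1.89-fold lower, limma-trend adjusted p = 0.00192). Gmps, which makes GMP, fell 1.73-fold, Tk1, thymidine kinase, 1.98-fold, and Dhodh, the mitochondrial enzyme of pyrimidine synthesis, 2.32-fold.

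Genes of lipid synthesis were called in both directions. Of 20 genes of fatty acid synthesis and desaturation 2 rose and 8 fell (median −0.50). Scd1, a desaturase on chromosome 19, had 213 and 207 CPM in KO, against 369 and 331 CPM in WT (1.67-fold lower, limma-trend adjusted p = 0.00122), and Acaca and Acly, the enzymes that make malonyl-CoA and acetyl-CoA, on chromosome 11, fell 1.93-fold and 1.57-fold. Off chromosomes 6, 8 and 11, 4 of 16 fell and 2 rose. In the cholesterol list 3 of 26 rose and 5 fell (median −0.28), and off these chromosomes 3 of 23 rose and 3 fell. The regulators of the pathway moved apart: Scap, the escort of the SREBP factors, rose 2.06-fold and Srebf2 rose 1.54-fold, whereas Srebf1, on chromosome 11, fell 1.91-fold. Idi1, an enzyme of isoprenoid synthesis on chromosome 13, had 43.8 and 32.8 CPM in KO, against 69.9 and 87.3 CPM in WT (2.05-fold lower), and Hmgcs1 fell 1.47-fold. In respiratory complex I none of 45 genes was called (median −0.11), and in the tricarboxylic acid cycle 2 of 25 rose and 5 fell. The share called in that cycle was 28%, against 13.6% over all genes. Off chromosomes 6, 8 and 11, 2 of its 20 genes rose and 3 fell.

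The replication-dependent histones, which are made in S phase, had the largest share of lower calls. Of 63 tested 0 rose and 39 fell, with a median log2 change of −0.72, and off chromosomes 6, 8 and 11 36 of 60 fell. The share differed by kind of histone: 5 of 6 H1 genes, 9 of 11 H3 genes and 11 of 13 H4 genes fell, against 10 of 17 H2B genes and 4 of 16 H2A genes. Hist1h3i had 27.3 and 35.8 CPM in KO, against 108 and 122 CPM in WT (3.66-fold lower, log2 change −1.85, limma-trend adjusted p = 2.55e-05). Hist4h4, on chromosome 6, had 54.6 and 50.5 CPM in KO, against 154 and 169 CPM in WT (3.07-fold lower). Histone genes of a kind are near copies, so the split of reads among them is uncertain, but summed over the list the level was 9256 and 9047 CPM in KO, against 15652 and 14692 CPM in WT. How each library treated transcripts without a poly(A) tail is not given in the sources used here, and its part in this result was not tested.

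Some other genes of S phase and of DNA repair fell and none rose. The share lower was 23.8% in DNA replication and 16.3% in DNA repair, against 7.03% over all tested genes. Off chromosomes 6, 8 and 11 it was 4.01% over all genes, and 9.29% over those at 50 CPM or more. In the list of DNA replication 0 of 42 rose and 10 fell (median −0.39, and 5 of 32 lower off chromosomes 6, 8 and 11), among them Rfc1 of the clamp loader (1.69-fold) and Rpa3 of the single-strand binding complex (chromosome 6, 2.07-fold). In DNA repair 0 of 43 rose and 7 fell (median −0.26, and 4 of 35 off these chromosomes). Fancd2 is given above. Xrcc6, the KU70 subunit of end joining on chromosome 15, had 38.4 and 59.7 CPM in KO, against 116 and 112 CPM in WT (2.32-fold lower, limma-trend adjusted p = 0.00095). Ercc3, a helicase of excision repair on chromosome 18, fell 2.01-fold. Of 25 p53 targets 6 rose and 0 fell (median 0.43), among them Eda2r (1.99-fold), Plk2 (2.49-fold) and Perp, a junction protein, which had 23.1 and 32.2 CPM in KO, against 6.40 and 10.7 CPM in WT.

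Some RNA processing genes were lower. The shares called were 21.9% in the spliceosome, 19% in mRNA decay and 22% in SR proteins and hnRNPs, against 13.6% over all genes. Off chromosomes 6, 8 and 11, 4.01% of all genes were lower, and 9.29% of those at 50 CPM or more. The lower shares of these lists there, counted below, lay near the latter. In the core spliceosome 0 of 32 rose and 7 fell (median −0.28, and 3 of 27 lower off chromosomes 6, 8 and 11). Eftud2, a GTPase of the U5 particle on chromosome 11, had 122 and 104 CPM in KO, against 248 and 249 CPM in WT (2.19-fold lower, limma-trend adjusted p = 9.25e-05), and Sf3b6, of the U2 particle on chromosome 12, fell 2.42-fold. In the list of the exon junction complex and mRNA decay 0 of 42 rose and 8 fell (median −0.15, and 3 of 29 off chromosomes 6, 8 and 11), with Rbm8a (1.51-fold) on chromosome 3. Exosc7, an exosome subunit on chromosome 9, had 6.15 and 4.59 CPM in KO, against 25.1 and 15.8 CPM in WT (3.81-fold lower, named after its value was seen). Among SR proteins and hnRNPs 3 of 50 rose and 8 fell (median −0.10, and 5 of 41 lower off these chromosomes). Srrm2, a large scaffold protein of nuclear speckles, had 1341 and 1020 CPM in KO, against 497 and 487 CPM in WT (2.40-fold, log2 change 1.25, limma-trend adjusted p = 7.06e-06), while Hnrnpk, an abundant hnRNP, had 589 and 660 CPM in KO, against 846 and 871 CPM in WT (1.37-fold lower).

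Enzymes that write and erase DNA methylation moved in both directions. Of 20 tested 5 rose and 3 fell (median −0.17, and 0.40 over the 15 members off chromosomes 6, 8 and 11). Zfp57, which guards methylation at imprinted loci, had 864 and 845 CPM in KO, against 348 and 326 CPM in WT (2.54-fold, log2 change 1.34, limma-trend adjusted p = 1.05e-06). Dnmt3b, a de novo methyltransferase, had 115 and 129 CPM in KO, against 54.1 and 65.4 CPM in WT (2.04-fold), and Tet2, which oxidises methylcytosine, rose 1.37-fold. Tdg, the glycosylase that removes the oxidised bases, had 31.5 and 35.4 CPM in KO, against 77.3 and 73.6 CPM in WT (2.25-fold lower). Dppa3, on chromosome 6, fell 2.19-fold. In Polycomb complexes 2 of 31 rose and 5 fell (median −0.17), a share called of 22.6%, against 13.6% over all genes. Of the 5 lower genes 4 lie on chromosomes 6, 8 or 11. With chromosome medians removed 0 of them were lower. They include Ezh2 (1.61-fold) and Suz12 (1.36-fold), whereas Jarid2, a cofactor on chromosome 13, rose 1.37-fold. Of 329 Zfp zinc finger genes 22 rose and 2 fell (median 0.00), a share called of 7.29%, against 13.6% over all genes, and the 2 that fell, Zfp330 and Zfp42, lie on chromosome 8 (Zfp330 was named after its value was seen). With chromosome medians removed Zfp42 was not called.

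Genes of cell state were called in part. The shares called were 18.2% for core pluripotency factors and 23.1% for formative and primed genes, against 13.6% over all genes. They were 33.3% for primitive endoderm regulators and 22.2% for neural genes. Of 22 core pluripotency factors 1 rose and 3 fell (median −0.02), and the 3 that fell, Nanog, Dppa3 and Zfp42, all lie on chromosomes 6 or 8. Pou5f1, Sox2, Klf4 and Esrrb were not called. Among 13 formative and primed genes 3 rose and 0 fell (median 0.16), among them Nodal and Dnmt3b. None of 9 trophoblast and 4 mesoderm genes was called. Of 9 primitive endoderm regulators 3 rose and 0 fell (median 0.55), namely Lrp2, the endocytic receptor megalin (2.36-fold), Fgfr2 and Sparc. The lineage factors Gata4 and Gata6, at 3.94 CPM or less in every library, were not called (named after their values were seen). Of 9 neural genes tested 1 rose and 1 fell (median 0.29, and 0.80 over the 7 off chromosomes 6, 8 and 11). Nes, nestin, an intermediate filament of neural progenitors, had 42.3 and 36.7 CPM in KO, against 99.9 and 86.8 CPM in WT (2.36-fold lower). Stmn2 had 33.8 and 39.4 CPM in KO, against 20.2 and 17.4 CPM in WT (1.95-fold higher). Vim, vimentin, rose 1.82-fold. Zscan4c, a marker of the state that resembles the 2-cell embryo, had 25.5 and 13.9 CPM in KO, against 0 and 0.383 CPM in WT (log2 change 4.08, limma-trend adjusted p = 0.000366). Over 6 markers of that state, 5 of them tested, the sum was 39.7 and 53.6 CPM in KO, against 6.9 and 8.9 CPM in WT. But over the 14 tested genes of the list of that state it was 316 and 373 CPM in KO, against 257 and 293 CPM in WT. The median log2 change of these 14 genes was 1.20, with a range from 0 to 4.08. None of the other 13 tested genes of the list was called, and the Zscan4 genes are near copies whose reads can be shared.

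Noncoding RNAs leaned upward. By RefSeq class, 36 of 432 tested long noncoding RNAs were higher and 4 lower, 5 of 13 small nucleolar RNAs were higher and 0 lower, and 809 of 12596 protein-coding genes were higher and 918 lower. Kcnq1ot1, which silences an imprinted domain, had 3414 and 3015 CPM in KO, against 1118 and 1388 CPM in WT (log2 change 1.36, limma-trend adjusted p = 1.05e-06). Malat1, of nuclear speckles, had 7886 and 7195 CPM in KO, against 4387 and 4797 CPM in WT (log2 change 0.71). Snord17, a small nucleolar RNA, had 1119 and 1220 CPM in KO, against 555 and 510 CPM in WT (log2 change 1.13, named after its value was seen). In the 3 of them the KO libraries lay above the WT libraries. Xist, the RNA of X inactivation, had 236 and 173 CPM in KO, against 57.3 and 80.0 CPM in WT (log2 change 1.56). It overlaps its antisense gene Tsix, also called higher (3.25-fold), and whether reads were counted by strand is not given in the sources used here, so the pair cannot be told apart. Rpph1, the RNA of RNase P, fell 1.51-fold.

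On the X chromosome 32 genes were higher (6.63%) and 23 lower (4.76%) of 483 tested, with a median log2 change of 0.10. Over all tested genes 6.57% were higher and 7.03% lower. Outside the chromosomes with the downward shift described above, the shares were 7.68% and 4.01%. The shares on the X chromosome thus lay near the background. Within 300 kb of Xlr5a 16 genes were tested, of which 3 members of the Xlr family, near-identical genes expressed in germ and lymphoid cells, were lower and 1 gene was higher. Xlr3a had 28.8 and 28.9 CPM in KO, against 89.3 and 72.9 CPM in WT (2.81-fold lower, log2 change −1.45, limma-trend adjusted p = 0.00037). On the Y chromosome, named after the values were seen, Uty had 91.4 and 81.4 CPM in KO, against 48.7 and 51.1 CPM in WT (log2 change 0.78, limma-trend adjusted p = 0.0135). Kdm5d was listed at 0 in both KO libraries, against 4.43 and 4.09 CPM in WT, and was not called (limma-trend adjusted p = 0.0538). Eif2s3y and Ddx3y were not called, so reads of the Y chromosome were present in all 4 libraries.

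The genes called higher were longer than the others. Their median span on the genome (RefSeq, introns included) was 42.7 kb over 868 genes, against 22.0 kb over 929 genes called lower and 21.9 kb over 11381 genes without a call. Of the genes called higher 24.7% spanned more than 100 kb, against 5.38% of those called lower and 12% of those without a call. Among genes at 50 CPM or more the medians were 45.8 kb for higher, 22.5 kb for lower and 30.9 kb for uncalled genes. Promoter CpG content differed little, with medians of 21, 22 and 20 CpGs per window for genes called higher, called lower and not called. These values describe the calls and were not tested.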

How the data were processed

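Total RNA libraries of KO and WT cells (2 each) were grouped by their titles and genotype labels. The submitters' processing notes name CASAVA 1.8.2, Bowtie2, RSEM and the build mm10. How strand and ribosomal RNA were handled, and the alignment settings, were not given in the sources used here. Values were deposited by the authors as CPM, a depth-scaled level, with 1 value per gene symbol and library. Depths are estimates that take the most frequent value above 0 in each library as 1 read. From 89.6% to 90.5% of values above 0 were then whole reads within 0.01 read, so read counts could not be recovered. Rn45s, the ribosomal RNA precursor, took 5.77% and 3.38% of CPM in KO, against 2.49% and 6.46% in WT.

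Genes averaging 1 CPM or more were tested on log2(CPM + 1) with limma-trend (limma 3.58.1, R 4.3.3), with an adjusted p below 0.05 (Benjamini-Hochberg over all tested genes) as the threshold. The script was tested on simulated data. Folds are ratios of mean CPM, SEs are those of the fit, and an exact or permutation test with 2 libraries against 2 cannot reach a small p. Nothing beyond the word biological says how the replicates were made. The p-values measure the spread between these libraries, which may be technical in part. Chromosomes, spans and classes of 13178 tested genes came from RefSeq (GRCm38.p6, the assembly of mm10), 674 of them through synonyms, and promoter windows from RefSeq.

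The genes and gene lists were chosen with earlier results of these data known. Named genes are Mettl6, the 15 largest called increases and decreases at 50 CPM or more, the 10 largest of each at 5 to 50 CPM, in each list up to 5 genes lowest in p, and 6 pluripotency factors, leaving out predicted genes, clone names and pseudogenes. Some genes that meet this rule are not reported here. Lists are described by counts and medians and were not tested, and mitochondrially encoded genes were not analysed here. Alternatives changed the filter, pseudocount, scaling, block, variance model, chromosomes and libraries in the fit.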

Additional observations from a re-analysis of the deposited data

How the results depend on the processing

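The count of 1799 called genes (869 higher and 930 lower) stayed between 1510 and 2006 with pseudocounts of 0.1 and 0.5 CPM, a filter at 5 CPM, median-ratio scaling, quantile normalization, library totals without Rn45s, chromosome medians removed and, chosen after seeing the data, limma-voom on estimated reads. With no filter on low values limma called 937 genes, 492 higher and 445 lower, of which 934 were among the 1799. Without the genes of chromosomes 6, 8 and 11 it called 1182, with 783 higher and 399 lower (66.2% higher, against 48.3% with all genes), as 42 of the genes left out were called higher and 498 lower. With chromosome medians removed 872 were higher and 873 lower, and 1364 were among the 1799. Without the variance trend limma called 0 genes (2856 at an unadjusted p below 0.05), and with any 1 library left out limma-trend called 0 genes (1863 to 3655 at an unadjusted p below 0.05). The cause was not tested, though the fits with 1 library fewer have fewer samples. With the replicate number as a block, 2056 genes were called (980 higher and 1076 lower), 1765 of them among the 1799, but the numbers do not pair the libraries (correlation of the deviations of same-numbered libraries −0.013).

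Of 372 named genes none reversed its direction in an alternative where it was called there or in the main fit. For genes without a call in either fit the direction was not followed. Calls were lost for 289 without the variance trend and with each library left out, 60 with no filter, 42 with chromosome medians removed, 17 and 4 with pseudocounts of 0.1 and 0.5 CPM, 4 with limma-voom, 2 without the genes of chromosomes 6, 8 and 11 (F11r and Pdk1) and 1 with the block. Of 91 medians of lists and chromosomes 28 were at least 0.3 in size, and 1 of these changed sign, that of chromosome 8 when chromosome medians were removed. Depth limits genes under 5 CPM, where a read is worth 0.492 to 0.768 CPM.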
